A study of Mus musculus with 10 samples.

Results

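The response of ATF4-deficient mouse cortical neurons to sodium arsenite was described on 4 of the 10 arrays of the study, 2 from arsenite-treated and 2 from vehicle-treated ATF4-deficient cultures, over 22180 genes. The 4 arrays were taken by their labelled genotype and treatment, and every gene with a probe set of a single symbol was measured. Cortical neurons came from embryos at embryonic day 14.5 to 15.5 and received 5 µM sodium arsenite or vehicle for 12 hours on day 7 in culture. The other 6 arrays, 4 of arsenite-treated and 2 of vehicle-treated wildtype neurons of the same age and handling, were used for the estimate of spread and for side-by-side values. The labels number the arrays of each group as biological replicates. They give neither the design of the Atf4 deletion nor the source of each replicate (its embryo, litter or culture). The p-values therefore speak only of spread among these arrays, part of which may be technical. All values are log2 expression after robust multiarray averaging (RMA), which makes the arrays' distributions equal, so a shift shared by most transcripts would not be seen.

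ATF4 is the transcription factor that the integrated stress response makes through selective translation when eIF2α is phosphorylated, and it drives genes for amino acid import, amino acid synthesis and tRNA charging. Arsenite, a trivalent arsenic compound that binds protein thiols, is known to act on several stress systems at once: the eIF2α kinases, the factor NRF2, which induces glutathione and thioredoxin genes, and HSF1, which induces heat shock proteins. Neurons also hold a set of activity-regulated genes, first of all transcription factors such as Fos and Npas4, that calcium entry switches on through CREB, SRF and MAP kinases, followed by secreted peptides, growth factors and phosphatases.

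The Atf4 probe set read 7.54 and 7.70 in ATF4-deficient arsenite arrays and 7.65 and 7.48 in ATF4-deficient vehicle arrays, against between 9.43 and 9.91 in wildtype arsenite and 9.09 and 9.56 in wildtype vehicle arrays. All 4 ATF4-deficient arrays thus lay below all 6 wildtype arrays, although above the level of 6.64 that 90% of 1390 olfactory and vomeronasal receptor genes, a reference for dim signal, did not exceed. Which part of the gene is deleted is not given, so the probe set cannot check the genotype by itself. Markers of neurons were present: the mean over 10 such genes was 10.44 and 10.38 in arsenite arrays and 10.38 and 10.32 in vehicle arrays, and 0 of them had both group means under the dim level. The 13 astrocyte markers averaged 8.07 and 7.69 with arsenite and 8.10 and 7.63 with vehicle, the 11 microglial markers 7.11 and 6.89 against 7.17 and 7.09, and 6 of the 8 endothelial markers were dim in both groups. In each of these cell type lists 0 genes were called, and their part in the results below was not tested. In such bulk samples, fewer cells of a type and less RNA per cell cannot be told apart. Array medians over the 22180 genes lay between 7.00 and 7.09, and the arsenite array 2 stood apart from the rest, scoring 29.4 on principal component 1 where the other 9 scored −18.2 to 8.70. The transcript Xist, expressed from the inactive X chromosome of females, was high on both arrays numbered 1 (12.26 with arsenite and 11.75 with vehicle) and low on both numbered 2 (6.70 with arsenite and 6.26 with vehicle), so the treatments were alike in this respect.

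Arsenite moved 256 genes past an adjusted p of 0.05 in ATF4-deficient neurons (limma over all 10 arrays, Benjamini-Hochberg adjustment over 22180 genes), which is 1.15% of all genes. Of these, 140 rose (0.631% of genes) and 116 fell (0.523%), with median changes of 0.69 and −0.79 on the log2 scale, while the median over all genes was −0.01. These shares over all genes are the background for each list count below. A change of more than 2-fold was seen for 19 of the genes that rose and 28 of those that fell. The 2 arsenite arrays lay wholly above or wholly below the 2 vehicle arrays for all 256, but the same was true of 8611 genes, or 38.8%, and is no evidence by itself. The count also rests on few arrays: without the vehicle array 1, the vehicle array 2 or the arsenite array 2 only 57, 51 and 50 genes passed, 123 passed without the arsenite array 1, 149 without either wildtype vehicle array and 160 without the wildtype arsenite array 2, and a fit on the 4 ATF4-deficient arrays alone called 0, with 2025 genes at an unadjusted p under 0.05. Every one of the 256 kept its direction when any 1 of the 10 arrays was left out, and 22 of them, 8 that rose and 14 that fell, passed in all 10 such fits. Those calls are named as holding in all 10 fits below. Only 138 calls held in at least as many of these fits as they were lost in. For some genes below no such count is given. The kept direction was fixed in advance and is no evidence by itself. The arrays of all 256 genes do not overlap between treatments, and wildtype arrays do not enter the size of the change.

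**Figure D1:**
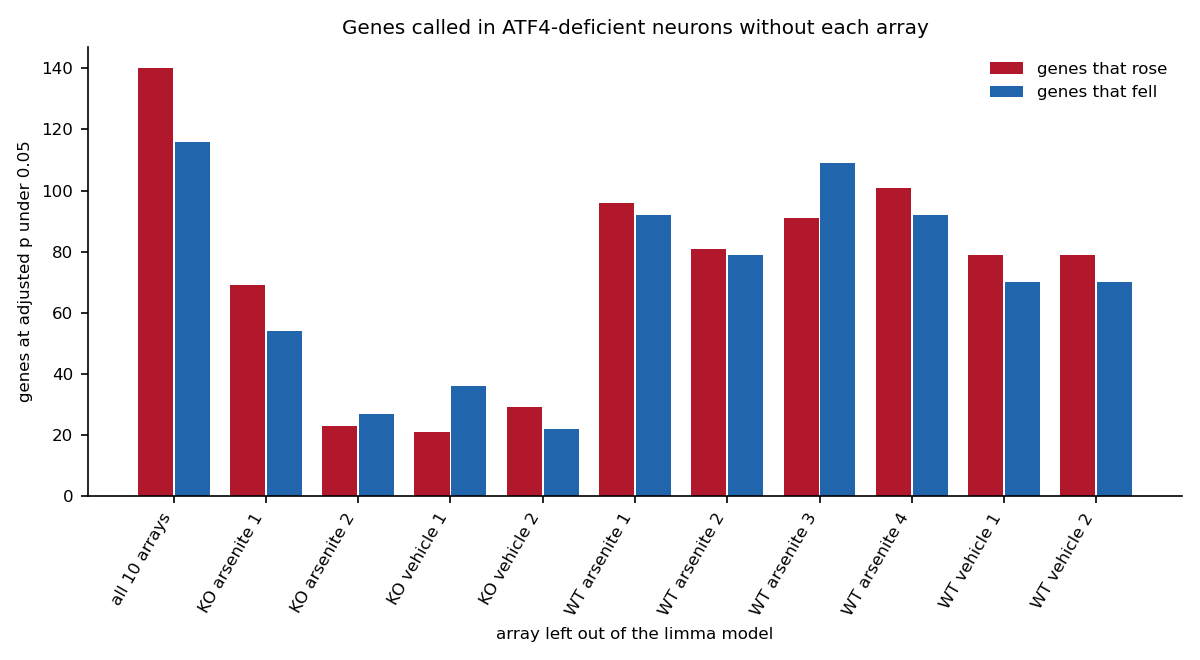
Number of genes past an adjusted p of 0.05 for arsenite against vehicle in ATF4-deficient (KO) neurons, with all 10 arrays and with each array left out of the limma model in turn (red bars, genes that rose; blue bars, genes that fell). Counts are lowest where 1 of the 4 ATF4-deficient arrays is missing, between 21 and 69 genes that rose and between 22 and 54 that fell.

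The largest rise was that of Hmox1, heme oxygenase 1, which breaks down heme and is the classical arsenite-induced gene. It read 9.90 and 9.18 on the arsenite arrays and 8.05 and 6.67 on the vehicle arrays, a rise of 2.18 ± 0.36 on the log2 scale (SE of the limma fit), or 4.52-fold, with an adjusted p of 0.0215. Both arsenite arrays lay above both vehicle arrays, yet the vehicle arrays differed from each other by more than the arsenite arrays did, and the call was lost without the vehicle array 2, the arsenite array 1 or the arsenite array 2. Slc7a11, the cystine importer that feeds glutathione synthesis, read 6.79 and 6.41 with arsenite and 5.51 and 4.82 with vehicle (rise 1.43 ± 0.29, adjusted p = 0.0432 by limma). Its groups did not overlap, but both ATF4-deficient means lay under the dim level, a second probe set of the gene differed by only 0.04, and its call held in 2 of the 10 fits. Wildtype neurons read between 8.67 and 9.12 with arsenite and 6.13 and 7.04 with vehicle.

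Besides these, 2 more of the 38 measured targets of NRF2 rose. Gclc, the catalytic subunit of the enzyme that starts glutathione synthesis, read 8.80 and 9.06 with arsenite and 8.22 and 8.26 with vehicle (rise 0.69 ± 0.14, adjusted p = 0.0373). Txnrd1, the cytosolic thioredoxin reductase, read 9.60 and 9.91 with arsenite and 8.84 and 9.10 with vehicle (rise 0.78 ± 0.14, adjusted p = 0.0279). The arsenite arrays lay above both vehicle arrays in each, Gclc held in 2 of the 10 fits with an array left out, and Txnrd1 held in 7, not without either vehicle array or the arsenite array 2. A further target went the other way: Slc40a1, ferroportin, the iron exporter, read 6.33 and 6.30 with arsenite against 6.99 and 7.09 with vehicle and fell by 0.73 ± 0.14 (adjusted p = 0.0359). Other enzymes of the pathway did not pass: Gsr, which reduces oxidised glutathione, differed by 0.65 (adjusted p = 0.118), Me1, an NADPH-making malic enzyme, by 0.67 (0.113), Gclm, the partner of Gclc, by 0.42 (0.346), and Srxn1 and Nqo1 by 0.00 and −0.00. Over the list the median change was 0.12, with 27 of 38 genes above 0, against −0.01 over all genes, but it was 0.02 without the vehicle array 2 and 0.22 without the vehicle array 1. None of the 10 regulators of NRF2 was called, and Bach1, the repressor of Hmox1, differed by 0.49 (adjusted p = 0.124).

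The arrestin-like genes formed the second group that rose. Txnip, the thioredoxin-interacting protein that restrains glucose uptake and binds thioredoxin, read 11.09 and 10.35 with arsenite and 9.10 and 9.24 with vehicle, a rise of 1.55 ± 0.30, or 2.93-fold (adjusted p = 0.0351 by limma). Its relatives Arrdc4, at 9.76 and 9.65 against 8.79 and 8.94, and Arrdc3, at 10.81 and 11.02 against 10.13 and 10.21, rose by 0.84 ± 0.13 and 0.74 ± 0.14 (adjusted p = 0.0137 and 0.0373). In all 3 genes both arsenite arrays lay above both vehicle arrays. The calls were less firm than the sizes, since Txnip passed in 3 of the 10 fits with an array left out, Arrdc4 in 6 and Arrdc3 in 1. Arrdc1 and Arrdc2 differed by 0.08 and 0.06 (adjusted p = 0.802 and 0.937). Mlxipl and Mlxip, which encode the glucose-sensing factors ChREBP and MondoA that drive Txnip, differed by −0.22 and −0.16, and 0 of 20 genes of glucose transport and glycolysis were called, with a median of 0.02.

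Of 37 heat shock proteins and co-chaperones, 2 rose and 0 fell. Hspa1a, the stress-inducible HSP70, read 7.88 and 8.29 with arsenite and 6.96 and 7.09 with vehicle (rise 1.06 ± 0.20, adjusted p = 0.0359 by limma). Its neighbour and near-copy Hspa1b read 6.98 and 7.84 against 6.40 and 6.04, a larger difference of 1.19 ± 0.37 that did not pass (adjusted p = 0.201), and probes for these near-identical genes may read both. Dnajb4, an HSP40 co-chaperone, rose by 0.47 ± 0.09 (adjusted p = 0.0396), a call that held in 0 of the 10 fits with an array left out, while Hspa1a held in 2. All 6 measured genes of the HSP90 system lay above 0 without passing, from 0.20 for the activator Ahsa1 to 0.60 for the HSP70–HSP90 adaptor Stip1. Of 5 small heat shock proteins 4 lay below 0. The metallothioneins Mt1 and Mt2, which bind arsenic and other metals, differed by 1.01 and 1.59, but Mt2 spread from 9.68 to 11.72 between the vehicle arrays and neither passed (adjusted p = 0.323 and 0.192).

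Lists of genes that ATF4 is known to drive gave 0 calls apart from Slc7a11. Among 21 regulators of the integrated stress response the changes ran from −0.16 for Atf3, a stress-induced repressor, to 0.36 for Eif4ebp1, a brake on cap-dependent translation, with a median of −0.00 in ATF4-deficient neurons and 0.36 in wildtype neurons. That ATF4-deficient median took either sign, from −0.07 to 0.14, when 1 of the 4 ATF4-deficient arrays was left out. Ddit3, which encodes CHOP, differed by 0.25 (adjusted p = 0.577) in ATF4-deficient and rose by 1.06 (adjusted p = 0.0104) in wildtype neurons, but the difference between the 2 genotypes, −0.81 ± 0.20, did not pass (adjusted p = 0.701). Sesn2, a stress-induced inhibitor of mTORC1, differed by −0.07 (adjusted p = 0.953) in ATF4-deficient and rose by 1.34 (adjusted p = 0.0411) in wildtype neurons, again without a called difference (−1.41 ± 0.36, adjusted p = 0.724). The 17 enzymes of amino acid synthesis and one-carbon metabolism had a median of −0.01 in ATF4-deficient neurons, against 0.67 in wildtype neurons, and ran from −0.11 to 0.07 with 1 ATF4-deficient array left out. Asparagine synthetase, Asns, differed by −0.01 and the mitochondrial folate enzyme Mthfd2 by 0.04. The highest of the 17 was Aldh1l2, another mitochondrial folate enzyme, at 0.52 (adjusted p = 0.164). Amino acid transporters had a median of 0.09 in 14 genes, against 0.31 in wildtype, and cytosolic tRNA synthetases 0.04 in 18 genes, against 0.33. Slc7a1 and Slc7a5, importers of cationic and of large neutral amino acids, differed by 0.50 and 0.43 (adjusted p = 0.394 and 0.532). Endoplasmic reticulum folding genes gave 0 calls of 24, with a median of −0.01 and the chaperone Hspa5, known as BiP, at −0.04.

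The core of the Slc7a11 promoter is printed because the gene rose in ATF4-deficient neurons, and elements of the kind that ATF4 is known to bind lie in it. The window runs from 250 bases before to 50 bases after the RefSeq transcription start (GRCm38.p6, chr3:50443564-50443863, minus strand). Capitals mark matches to TGATGNAA, the core of the element shared by C/EBP and ATF factors, searched on both strands. They begin 66 and 47 bases before the start, in opposite orientation. Such a core was found in 3.97% of 32851 promoter windows and in 3.92% of the 16990 measured genes with a window. Of genes with a window, 3 of the 104 that rose and 3 of the 100 that fell held it. A match describes the letters only and is no evidence of binding.
Slc7a11: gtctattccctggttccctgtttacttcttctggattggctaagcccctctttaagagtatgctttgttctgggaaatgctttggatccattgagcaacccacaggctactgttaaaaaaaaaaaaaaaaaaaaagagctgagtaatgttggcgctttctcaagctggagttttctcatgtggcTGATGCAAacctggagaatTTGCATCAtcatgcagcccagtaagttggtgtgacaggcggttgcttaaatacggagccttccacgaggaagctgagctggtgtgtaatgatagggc

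Among activity-regulated transcription factors 8 of 26 measured genes fell and 0 rose, where 0.523% of all genes fell. This list, like the others, was chosen with earlier results of these data known, so its count is a description. Of the 26, 23 lay below 0 and the median of the list was −0.31, or −0.35 to −0.26 with 1 ATF4-deficient array left out. Averaged over the 26 genes, the arsenite arrays stood at 7.66 and 7.48 and the vehicle arrays at 8.12 and 8.14. All 3 members of the Nr4a family of orphan nuclear receptors fell. Nr4a3 read 8.98 and 9.03 with arsenite and 10.74 and 11.53 with vehicle, the lowest change of any gene at −2.13 ± 0.24 on the log2 scale (adjusted p = 0.00289 by limma). Nr4a2, at 8.75 and 8.72 against 10.04 and 10.19, fell by 1.38 ± 0.14 (adjusted p = 0.00198), and Nr4a1, at 7.75 and 7.58 against 8.94 and 9.06, fell by 1.34 ± 0.13 (adjusted p = 0.00176). In each of the 3 genes the arsenite arrays lay close together and well below the lower vehicle array, and all 3 calls held in all 10 fits.

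Npas4, a neuron-specific factor induced by calcium entry, read 7.04 and 6.58 with arsenite and 8.72 and 8.45 with vehicle (change −1.77 ± 0.18, adjusted p = 0.00198), and its call held in all 10 fits. Fos, the general immediate-early gene, read 7.13 and 6.35 against 8.50 and 8.22 (change −1.62 ± 0.21, adjusted p = 0.00686), and passed in 9 fits but not without the vehicle array 1. Fosl2, a Fos relative with slower kinetics, fell by 0.96 ± 0.15 (adjusted p = 0.0145). The groups were separate in all 3 genes, and in Fos and Npas4 the arsenite array 1 read higher than the arsenite array 2. Per1, a clock gene with CREB sites, read 8.93 and 8.41 with arsenite against 9.73 and 9.65 with vehicle and fell by 1.02 ± 0.20 (adjusted p = 0.0354). Nfil3, a bZIP repressor, fell by 0.87 ± 0.16 (adjusted p = 0.0294). Calls of Fosl2, Per1 and Nfil3 held in 7, 4 and 5 of the 10 fits. The Egr family, zinc finger factors induced through SRF, gave 0 calls among 4 members: Egr1 differed by −0.57 (adjusted p = 0.325), Egr3 by −0.26 (0.533) and Egr4 by −0.01. Jun differed by −0.76 (0.173), Ier2 by −0.50 (0.0530), Junb by −0.21 and Fosb by −0.18. The highest value of the list was that of Klf10, a factor induced by TGF-β, at 0.62 (adjusted p = 0.0816).

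**Figure D2:**
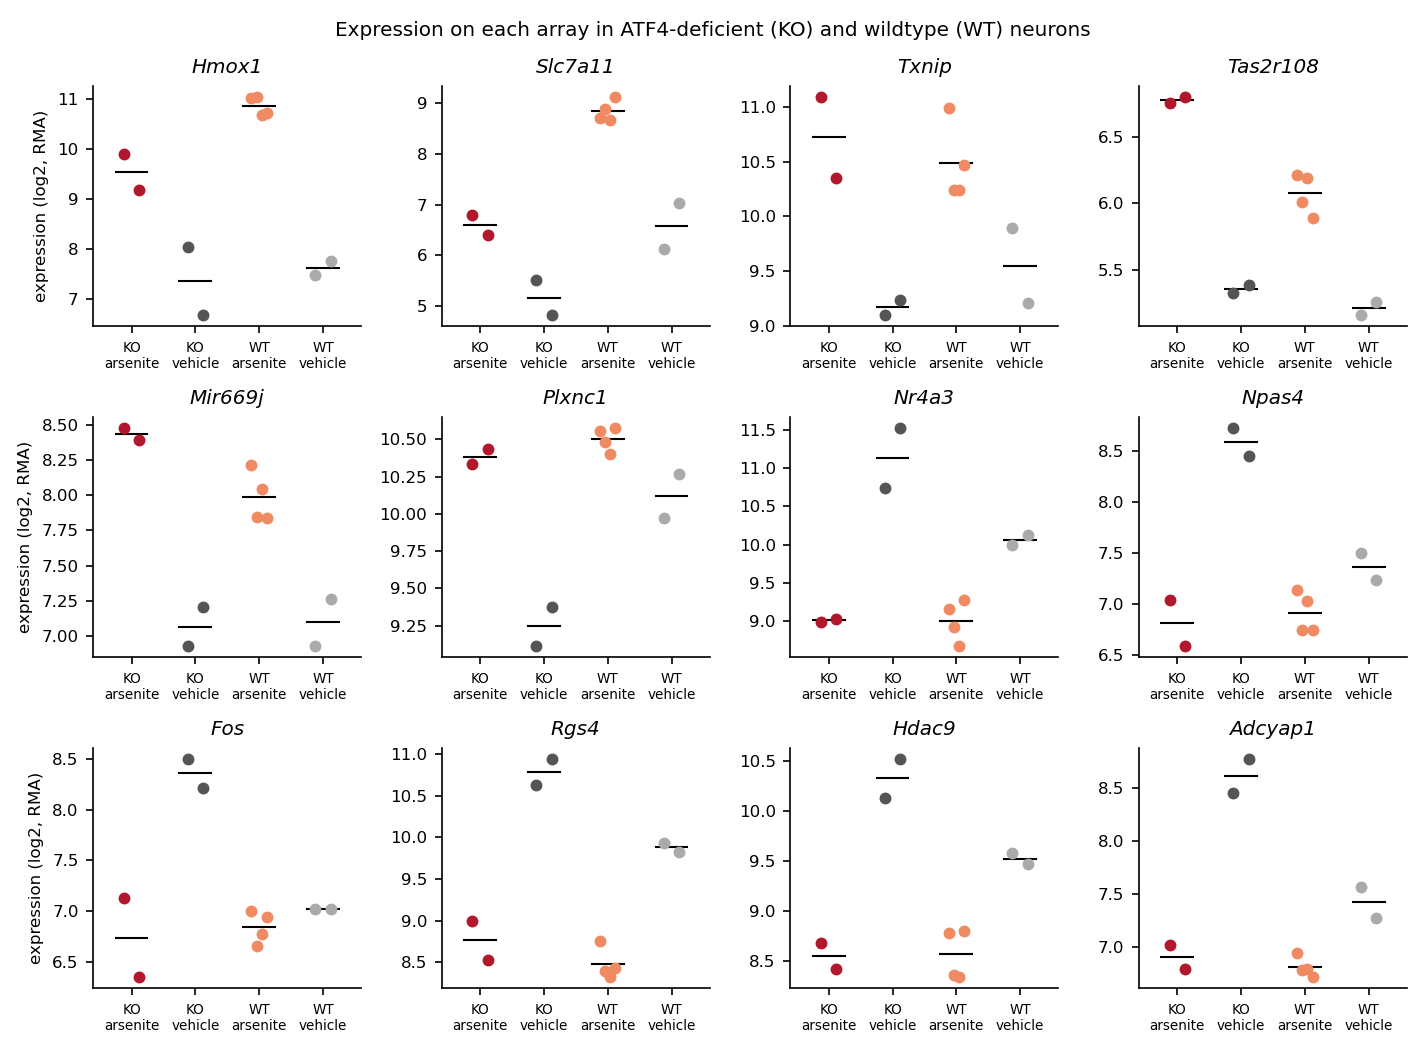
Log2 expression of 12 genes on each of the 10 arrays, by group (KO, ATF4-deficient; WT, wildtype; each point is an array, each line a group mean; axes differ between genes and do not start at 0). In ATF4-deficient neurons arsenite lies above vehicle on every array for the first 6 genes and below it for the last 6, and the vehicle values of Fos and Npas4 are higher in ATF4-deficient than in wildtype neurons on each array.

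The promoters of 4 of these genes and of Pcsk1, described next, are printed because cyclic AMP response elements (CREs), the sites of CREB, are the best known switch they share. Capitals mark the CRE half-site, TGACG on either strand, in the first 4, and the full palindrome TGACGTCA in Pcsk1, where the palindrome itself contains overlapping half-sites and other half-sites are left in lower case. All windows are RefSeq promoters of GRCm38.p6 from 250 bases before to 50 after the start: Fos at chr12:85473640-85473939, Nr4a1 at chr15:101266596-101266895, Nr4a3 at chr4:48045055-48045354 and Pcsk1 at chr13:75089607-75089906 on the plus strand, and Npas4 at chr19:4989922-4990221 on the minus strand. Fos holds 2 half-sites, the nearer beginning 66 bases before the start, Npas4 holds 2, and Nr4a1 and Nr4a3 hold 4 each.
Fos: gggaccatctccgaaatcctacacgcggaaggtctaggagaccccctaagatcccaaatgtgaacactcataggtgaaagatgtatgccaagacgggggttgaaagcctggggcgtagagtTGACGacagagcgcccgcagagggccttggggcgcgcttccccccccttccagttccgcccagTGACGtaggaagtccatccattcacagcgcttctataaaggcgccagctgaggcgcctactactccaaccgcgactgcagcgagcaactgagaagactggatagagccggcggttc
Npas4: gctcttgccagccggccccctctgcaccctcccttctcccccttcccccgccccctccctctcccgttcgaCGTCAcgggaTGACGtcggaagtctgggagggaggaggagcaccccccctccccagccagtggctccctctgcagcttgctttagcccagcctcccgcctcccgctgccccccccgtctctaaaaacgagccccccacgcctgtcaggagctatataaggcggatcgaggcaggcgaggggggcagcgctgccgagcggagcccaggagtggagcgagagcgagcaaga
Nr4a1: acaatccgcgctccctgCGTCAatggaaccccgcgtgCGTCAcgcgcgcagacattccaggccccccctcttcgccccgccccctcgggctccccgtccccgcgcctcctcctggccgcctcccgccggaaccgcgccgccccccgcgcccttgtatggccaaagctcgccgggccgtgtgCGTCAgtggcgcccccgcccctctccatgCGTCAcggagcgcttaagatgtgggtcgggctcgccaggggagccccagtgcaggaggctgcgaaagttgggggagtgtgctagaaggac
Nr4a3: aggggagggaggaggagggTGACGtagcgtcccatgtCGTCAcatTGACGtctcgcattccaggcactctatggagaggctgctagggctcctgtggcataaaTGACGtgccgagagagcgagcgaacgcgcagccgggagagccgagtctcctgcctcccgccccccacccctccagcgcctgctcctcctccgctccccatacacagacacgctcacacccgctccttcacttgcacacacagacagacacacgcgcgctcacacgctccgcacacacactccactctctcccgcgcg
Pcsk1: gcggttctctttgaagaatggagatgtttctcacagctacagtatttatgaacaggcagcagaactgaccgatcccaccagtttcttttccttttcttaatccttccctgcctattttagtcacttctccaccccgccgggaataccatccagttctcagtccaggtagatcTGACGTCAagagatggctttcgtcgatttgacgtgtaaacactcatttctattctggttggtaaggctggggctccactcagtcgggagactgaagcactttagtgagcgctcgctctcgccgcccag

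A half-site was found in 20.8% of 32851 windows, and in 26.8% of the 16990 measured genes with a window. It was present in 7 of the 8 fallen factors, all but Fosl2, and in 8 of the 11 factors of the list that were not called and have a window. The half-site was therefore common to the list, whether or not a gene fell. Among all genes with a window it stood in 26 of 100 that fell and in 30 of 104 that rose, close to its share over all genes. The full palindrome stood in 3 of 100 genes that fell, 1 of 104 that rose and 2.65% of all.

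Among 29 effectors that activity induces, 4 fell (Pcsk1, Bdnf, Inhba and Rgs2), 0 rose and the median was −0.18. Pcsk1, the convertase that cuts peptide hormone precursors in dense-core vesicles, read 6.96 and 7.30 with arsenite and 7.99 and 8.59 with vehicle (change −1.16 ± 0.18, adjusted p = 0.0167). Bdnf, the growth factor BDNF, read 6.96 and 6.90 against 7.51 and 7.52 and fell by 0.58 ± 0.09 (adjusted p = 0.0167), while Inhba, a subunit of activin, fell by 0.76 ± 0.14 (0.0294). Groups were separate in each of these, and in Bdnf the arrays of a group lay close together. The secreted granins Vgf and Scg2 differed by −0.75 and −0.74 without passing (adjusted p = 0.0696 and 0.0594). Arc, Plk2 and Homer1, synaptic genes of the same list, differed by −0.21, −0.03 and −0.18. Calls of Pcsk1, Bdnf and Inhba held in 8, 6 and 5 of the 10 fits with an array left out.

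Neuropeptide precursors and granins gave 4 falls and 0 rises among 30 genes, Pcsk1 and Bdnf being counted here too. Adcyap1, the precursor of the peptide PACAP that raises cyclic AMP, read 7.02 and 6.79 with arsenite and 8.46 and 8.78 with vehicle (change −1.71 ± 0.14, adjusted p = 0.00136). Both arsenite arrays lay well below both vehicle arrays, and the call held in all 10 fits. Crh, corticotropin-releasing hormone, read 6.84 and 6.92 against 7.62 and 7.61 and fell by 0.73 ± 0.15 (adjusted p = 0.0449), a call that held in 1 of the 10 fits. Peptides of interneurons did not pass: Sst differed by −0.28, Npy by 0.00 and Pnoc by −0.79 (adjusted p = 0.768, 1.00 and 0.163). The 10 markers of inhibitory neurons averaged 8.98 and 8.48 with arsenite and 9.06 and 8.74 with vehicle, 9 of them lay below 0 and 0 were called, and their part in the peptide values was not tested. Pam, which amidates peptides, differed by −0.86 (adjusted p = 0.0563).

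Receptors for peptides fell in 2 of 18 cases. Rxfp1, a relaxin receptor coupled to cyclic AMP, read 6.76 and 6.65 with arsenite and 7.92 and 8.18 with vehicle (change −1.34 ± 0.14, adjusted p = 0.00198), and Npy1r, a receptor of neuropeptide Y, read 8.18 and 7.96 against 9.21 and 9.21 (change −1.14 ± 0.17, adjusted p = 0.0143). The Rxfp1 call held in all 10 fits, and that of Npy1r was lost without either vehicle array or the arsenite array 2. Lgr5, a receptor for R-spondins that marks stem cells in epithelia, read 6.02 and 5.80 against 6.98 and 7.16 and fell by 1.16 ± 0.11 (adjusted p = 0.00176), with its arsenite mean under the dim level and a second probe set at only −0.09. Adcyap1r1, the receptor of PACAP, differed by 0.45 (adjusted p = 0.418).

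Regulators of G protein signalling, which shorten receptor signals by speeding GTP hydrolysis, included the second largest fall of all genes. Rgs4 read 8.99 and 8.53 with arsenite and 10.62 and 10.94 with vehicle, a change of −2.02 ± 0.18 (adjusted p = 0.00151) that held in all 10 fits. Rgs2, at 8.73 and 8.79 against 9.38 and 9.75, fell by 0.80 ± 0.15 (adjusted p = 0.0328). Rgs13, at 5.59 and 5.89 against 6.87 and 7.23, fell by 1.31 ± 0.19 (0.0108), and Rgs5 fell by 1.03 ± 0.21 (0.0450). The arsenite means of Rgs13 and Rgs5 lay under the dim level, and a second probe set of Rgs2 differed by 0.22. The other 16 members were not called, and Rgs7, Rgs16 and Rgs6 differed by −0.44, 0.17 and 0.46. Rgs5 is also a marker of pericytes. Of the other 10 measured mural and fibroblast markers 0 were called, Pdgfrb and Acta2 differed by 0.03 and 0.32, and the Rgs5 call held in 0 of the 10 fits. Both subunits of the nitric oxide receptor guanylate cyclase fell. Gucy1a1, at 9.30 and 9.05 against 10.21 and 10.32, fell by 1.08 ± 0.19 (adjusted p = 0.0279), and Gucy1b1, at 9.80 and 9.79 against 10.45 and 10.55, fell by 0.70 ± 0.14 (0.0398). The alternative subunit Gucy1a2 differed by 0.25 (adjusted p = 0.433). In the cyclic AMP list 1 of 26 genes fell, the calcium-stimulated cyclase Adcy8 (change −0.85 ± 0.16, adjusted p = 0.0305).

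Feedback inhibitors of MAP kinase signalling fell in 2 of 19 cases. Spry2, which blocks receptor tyrosine kinase signals upstream of Raf, read 8.24 and 8.28 with arsenite and 9.06 and 9.44 with vehicle (change −0.99 ± 0.12, adjusted p = 0.00544), a call that held in all 10 fits. Dusp1, a phosphatase of p38 and JNK, read 8.06 and 7.72 against 8.67 and 8.68 (change −0.79 ± 0.13, adjusted p = 0.0207). The arsenite arrays lay below both vehicle arrays in each gene. Dusp6, Dusp4 and Spred3 differed by −0.64, −0.39 and −0.65 (adjusted p = 0.127, 0.149 and 0.129). Hdac9 and Hdac5, class IIa histone deacetylases that hold MEF2 factors inactive and leave the nucleus during activity, fell too. Hdac9 read 8.68 and 8.42 against 10.13 and 10.52 (change −1.77 ± 0.19, adjusted p = 0.00207) and held in all 10 fits, while Hdac5 fell by 0.96 ± 0.18 (0.0305) and held in 5. The other class IIa members Hdac4 and Hdac7 differed by −0.31 and −0.03, and the MEF2 genes by −0.14 to 0.16.

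**Figure D3:**
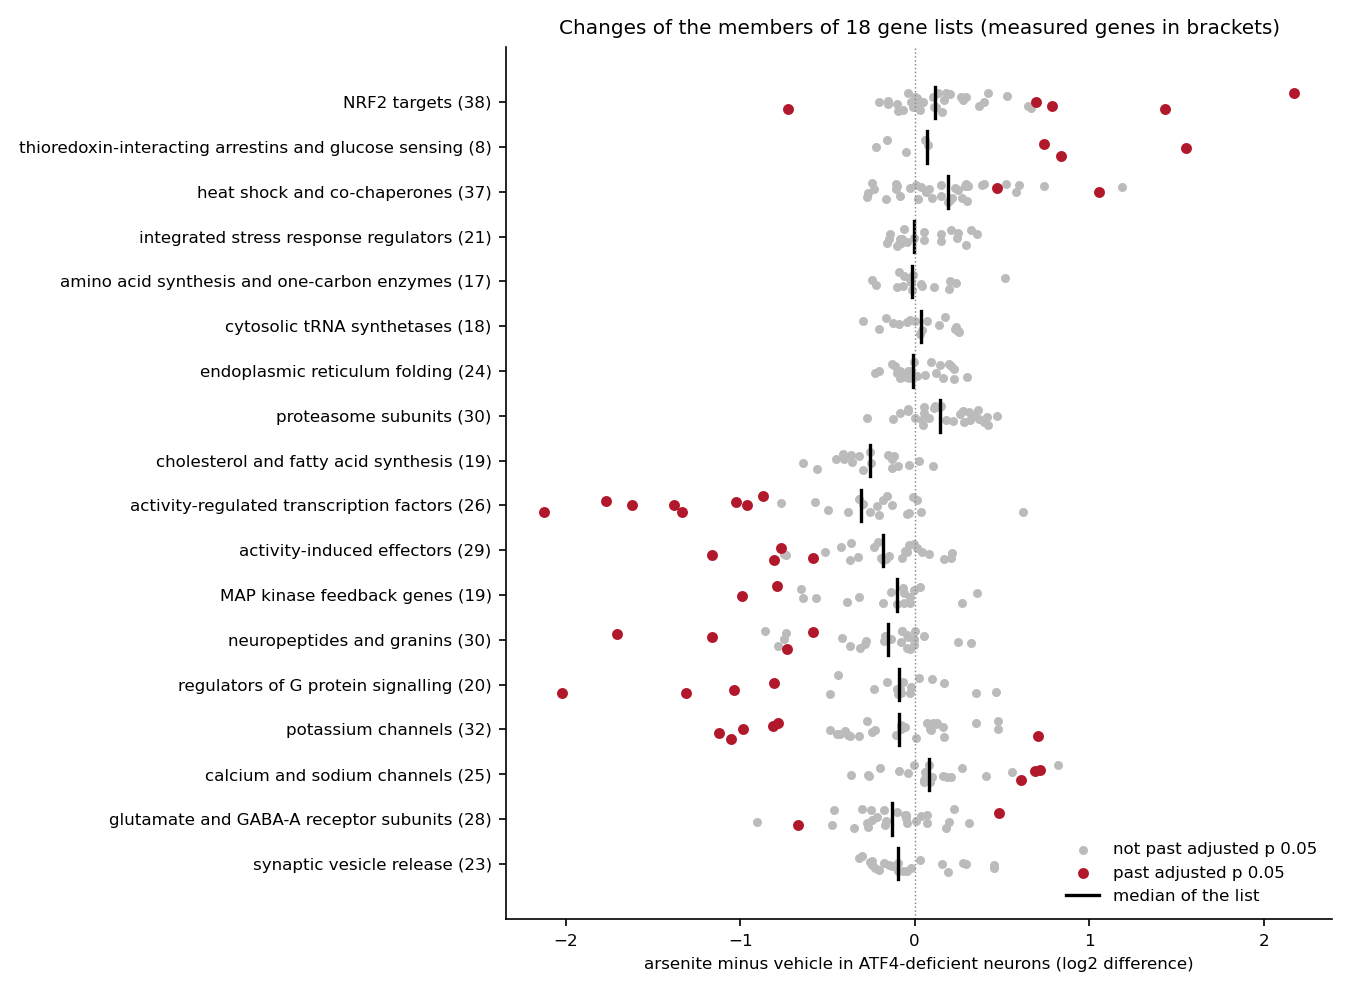
Log2 difference between arsenite and vehicle in ATF4-deficient neurons for every measured member of 18 gene lists (red points, adjusted p under 0.05 over all genes; grey points, not past it; black bars, list medians; vertical jitter has no meaning). Called genes lie below 0 in the activity, peptide and G protein lists and above 0 among NRF2 targets, arrestins and heat shock genes, with Slc40a1 as the exception, and the lists of integrated stress response regulators, amino acid enzymes and tRNA synthetases have medians near 0 and no called gene.

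Among ion channels genes were called in both directions. Of 32 potassium channel genes 5 fell and 1 rose. Kcnj3, the GIRK1 subunit that Gβγ opens, read 8.53 and 8.54 with arsenite and 9.49 and 9.83 with vehicle (change −1.12 ± 0.13, adjusted p = 0.00348), a call that held in all 10 fits, although a second probe set differed by only −0.03. Kcnk9, the leak channel TASK-3, fell by 1.05 ± 0.21 (adjusted p = 0.0409), Kcnj2, the inward rectifier Kir2.1, fell by 0.98 ± 0.19 (0.0386), Kcnq5, an M-current subunit, fell by 0.81 ± 0.13 (0.0217), and Kcna4, an A-type channel, fell by 0.78 ± 0.16 (0.0450). Kcnb2, a delayed rectifier, rose by 0.71 ± 0.14 (adjusted p = 0.0398). Kcnq3, the usual partner of Kcnq5, differed by 0.48 (adjusted p = 0.239). Calcium and sodium channels gave 3 rises and 0 falls among 25 genes. Cacna1d, an L-type channel pore, read 9.01 and 9.07 with arsenite and 8.28 and 8.41 with vehicle (rise 0.69 ± 0.10, adjusted p = 0.0137), Cacna2d3, an auxiliary subunit, read 9.19 and 9.40 against 8.52 and 8.63 (rise 0.72 ± 0.12, adjusted p = 0.0202), and Cacna1e, an R-type pore, rose by 0.61 ± 0.13 (adjusted p = 0.0497). The sodium channel Scn3a differed by 0.56 (adjusted p = 0.0652). Second probe sets of Kcnq5 and Kcna4 differed by −0.12 and 0.13. Calls of Kcnk9, Kcnj2, Kcnq5, Kcna4 and Kcnb2 held in 3, 3, 8, 1 and 1 of the 10 fits, and those of Cacna1d, Cacna2d3 and Cacna1e in 7, 7 and 1.

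Transmitter receptors and synaptic machinery gave 2 calls. Among 28 glutamate and GABA-A receptor subunits, Gria4, an AMPA receptor subunit, rose by 0.48 ± 0.10 (adjusted p = 0.0398) and Gabra5, the subunit of extrasynaptic GABA-A receptors, fell by 0.67 ± 0.10 (adjusted p = 0.0127). The other AMPA subunits Gria1, Gria2 and Gria3 differed by 0.23, 0.01 and −0.04, and the metabotropic receptor Grm2 by −0.91 (adjusted p = 0.134). None of 23 genes of vesicle release and 19 of the postsynaptic scaffold passed, with medians of −0.10 and −0.06. The Gria4 call held in 0 of the 10 fits with an array left out, and that of Gabra5 in 6.

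Guidance and adhesion molecules changed in both directions. Plxnc1, the receptor of semaphorin 7A, read 10.33 and 10.43 with arsenite and 9.11 and 9.38 with vehicle (rise 1.14 ± 0.13, adjusted p = 0.00308) and held in all 10 fits. Slit2, a repellent ligand of Robo receptors, read 9.29 and 9.25 against 9.91 and 10.53 (change −0.95 ± 0.17, adjusted p = 0.0279), and Ntng1, netrin G1, fell by 0.63 ± 0.13 (0.0480). The vehicle arrays of Slit2 were farther apart than its arsenite arrays, and its call was lost without the vehicle array 2 or either arsenite array. The semaphorin Sema7a, ligand of Plxnc1, differed by −0.31 (adjusted p = 0.291), and the Slit receptors Robo1 and Robo2 by 0.13 and −0.51. Adamts18, a secreted metalloprotease, read 7.17 and 7.44 with arsenite and 6.01 and 6.24 with vehicle (rise 1.18 ± 0.12, adjusted p = 0.00207), held in all 10 fits, and had a vehicle mean under the dim level, while Adamts1, an aggrecan-cutting member of the family, fell by 0.65 ± 0.12 (0.0309).

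Cadherins and clustered protocadherins, homophilic adhesion proteins, were examined after their values had been seen, so their counts are descriptions. All 22 measured genes of the protocadherin β cluster, isoforms that give neurons a surface identity, lay above 0, with a median of 0.45, and 4 rose: Pcdhb6, Pcdhb13, Pcdhb14 and Pcdhb8, by 0.75, 0.61, 0.60 and 0.56. Pcdhb6 read 8.92 and 8.93 with arsenite against 8.14 and 8.21 with vehicle (adjusted p = 0.00601). These genes are close copies that lie side by side, and probes may read more than 1 of them. In wildtype neurons the median of the cluster was 0.17 and 0 were called. Of 23 genes with cadherin (Cdh) symbols, Cdh18, Cdh9, Cdh6 and Cdh10 fell, with changes of −0.84, −0.69, −0.63 and −0.61, and Cdh4, R-cadherin, rose by 0.83. The 4 that fell are type II cadherins, and Cdh4 is of type I. Types were not compared over the 18 uncalled genes, and 17 of all 23 lay below 0. Cdh18 read 8.36 and 8.56 with arsenite and 9.17 and 9.42 with vehicle (adjusted p = 0.00956), and a second probe set of Cdh4 differed by only 0.04.

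Several large rises belonged to genes whose place in the genome was shared. Tas2r108, a bitter taste receptor, read 6.75 and 6.80 with arsenite and 5.33 and 5.39 with vehicle (rise 1.42 ± 0.12, adjusted p = 0.00136 by limma). Tas2r137, another such receptor, read 7.37 and 7.35 against 6.18 and 6.45 (rise 1.04 ± 0.10, adjusted p = 0.00176), and both calls held in all 10 fits. Their arsenite arrays lay above the dim level and their vehicle arrays below it. Of the 35 measured genes of this family the other 33 were not called, the median was 0.01, and 29 had both group means under the dim level. On mouse chromosome 6 both lie just after Ssbp1, a mitochondrial single-stranded DNA binding protein, on the same strand, in the order Ssbp1, Tas2r137, Tas2r108. Ssbp1, chosen after its values were seen, read 8.39 and 8.59 with arsenite and 7.83 and 7.61 with vehicle (rise 0.77 ± 0.15, adjusted p = 0.0328), while its second probe set differed by 0.32. The next genes outwards were Wee2, at 0.36 (adjusted p = 0.250), and on the other strand Dennd11, at 0.30 (0.369), and Prss37, at −0.13 (0.856). The arrays cannot tell receptor transcripts from longer transcripts of a neighbour, and this was not tested.

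A second such place was Sfmbt2, a Polycomb-group gene on chromosome 2 whose intron holds a large cluster of rodent microRNA hairpins. Sfmbt2 read 7.68 and 7.50 with arsenite and 6.52 and 6.51 with vehicle (rise 1.08 ± 0.14, adjusted p = 0.00607), with its vehicle mean under the dim level. Among the 22 hairpins measured inside it, Mir669j, at 8.48 and 8.39 against 6.93 and 7.20, rose by 1.37 ± 0.16 (adjusted p = 0.00348), Mir669k by 1.36 ± 0.18 (0.00758) and Mir669i by 1.15 ± 0.15 (0.00763). A second probe set of Mir669i differed by −0.15, and the 9 of Mir669k by 1.18 to 1.54. The other 19 were not called, ran from −0.80 for Mir466g to 0.58 for Mir669m-2, and 12 of all 22 lay below 0. Hairpins of the same cluster thus differed, and the brightest, Mir466h, at 12.12 with arsenite and 12.01 with vehicle, differed by 0.11. A probe set on a hairpin cannot tell the hairpin, its host transcript and the mature microRNA apart, and hairpins of this cluster are near-copies. The Mir669j call held in all 10 fits, those of Mir669k and Mir669i were lost without the vehicle array 1, and that of Sfmbt2 without the vehicle array 2.

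**Figure D4:**
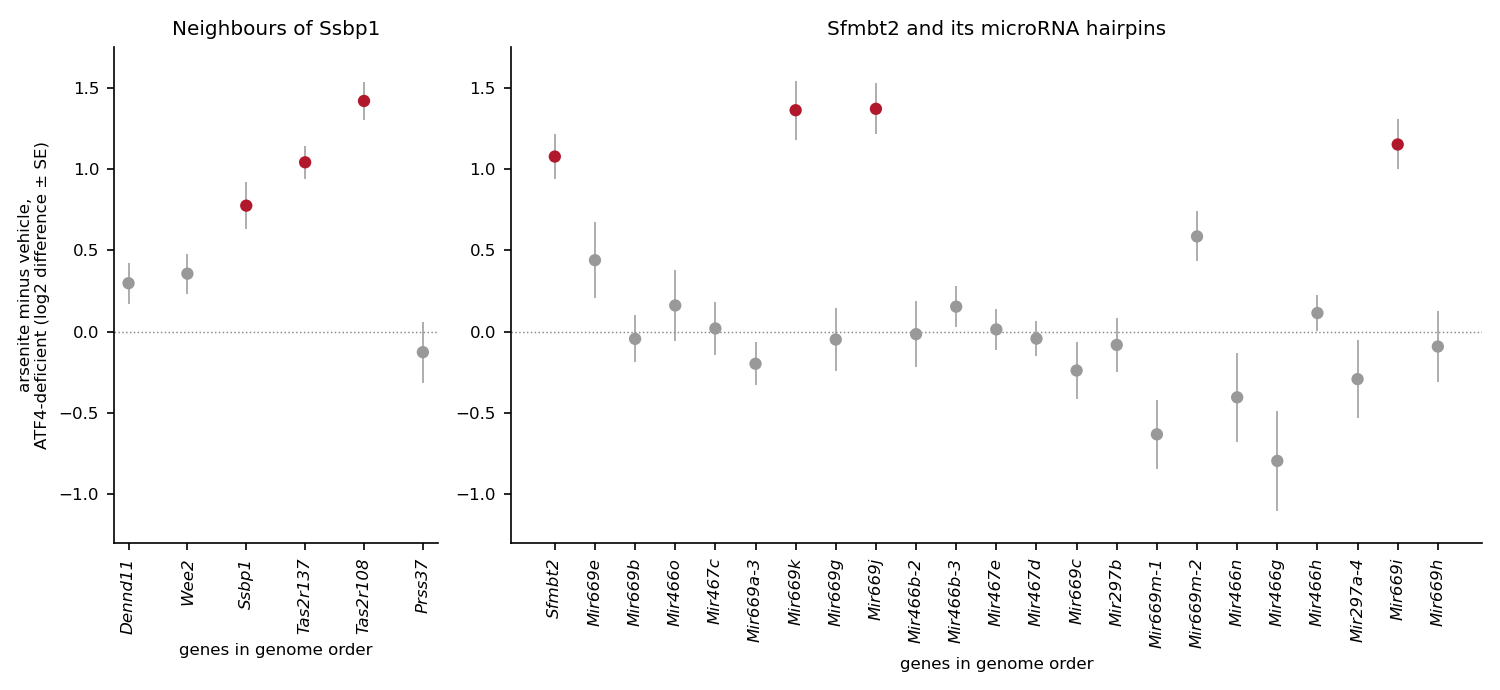
Log2 difference between arsenite and vehicle in ATF4-deficient neurons (points, with the standard error of the limma fit; red, adjusted p under 0.05) for genes in genome order around Ssbp1 (left) and for Sfmbt2 and the hairpins inside it (right). Ssbp1, Tas2r137 and Tas2r108 rise in a row between uncalled neighbours, and Mir669k, Mir669j and Mir669i stand at the level of Sfmbt2 while the other hairpins scatter around 0.

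Over all 484 measured hairpins 5 rose and 1 fell, and 282 had both means under the dim level. These 6 calls are close to the share of 1.15% called over all genes, so hairpins as a class did not stand out. Of the 6 called, 3 have mature sequences in the RefSeq table, which are printed with the seed (bases 2 to 8) in capitals because the seed decides which transcripts a microRNA can pair with. Mir670, at 6.95 and 6.51 with arsenite and 7.85 and 8.02 with vehicle, fell by 1.21 ± 0.17 (adjusted p = 0.00944). Mir5103, at 9.03 and 8.72 against 8.06 and 7.82, rose by 0.94 ± 0.18 (0.0362), and Mir181a-2, at 7.56 and 7.75 against 6.84 and 7.09, rose by 0.69 ± 0.13 (0.0314). Mir181b-2, the next hairpin after Mir181a-2, differed by 0.71 ± 0.20 (adjusted p = 0.154). The 5p arms of miR-181a and miR-181b share the seed ACAUUCA, while the other arms printed have seeds of their own. Positions are chr2:94261358-94261379 and chr1:34433130-34433149 (minus strand) and chr2:38852741-38852763 and chr2:38853845-38853868 (plus strand) of GRCm38.p6. Mir181a-2, Mir5103 and Mir670 passed in 4, 3 and 8 of the 10 fits with an array left out.
mmu-miR-670-5p: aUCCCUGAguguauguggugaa
mmu-miR-670-3p: uUUCCUCAuauccauucaggagugu
mmu-miR-181a-5p: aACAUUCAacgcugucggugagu
mmu-miR-181a-2-3p: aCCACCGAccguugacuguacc
mmu-miR-181b-5p: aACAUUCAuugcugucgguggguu
mmu-miR-5103: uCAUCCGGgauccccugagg

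The remaining large changes came from genes of mixed function. Slc44a5, a choline transporter-like protein, read 9.34 and 9.31 with arsenite and 8.19 and 8.28 with vehicle (rise 1.09 ± 0.10, adjusted p = 0.00175), and the other 9 genes of choline transport and activation were not called. Bbx, an HMG-box DNA binding protein, read 7.88 and 7.92 against 7.04 and 6.67 (rise 1.05 ± 0.13, adjusted p = 0.00567). Tnfrsf23, a decoy-type receptor of TRAIL in mice, read 8.44 and 7.63 against 6.67 and 6.71 (rise 1.35 ± 0.24, adjusted p = 0.0299), and held in 5 of 10 fits, while Slc44a5 and Bbx held in all 10. Its neighbours in the family, Tnfrsf22 and Tnfrsf26, differed by 0.19 and 0.00. H2aw, a histone H2A gene, rose by 1.04, Abracl, an actin regulator, by 0.94, Rbm12b2, an RNA binding protein, by 0.92 and the zinc finger gene Zfp992 by 0.99 (adjusted p between 0.0183 and 0.0373). Zinc finger genes with Zfp symbols, counted after their values were seen, gave 11 rises and 2 falls among 370, with a median of 0.11.

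Snx7, a sorting nexin of endosomes, read 7.42 and 7.59 with arsenite and 8.75 and 8.85 with vehicle (change −1.30 ± 0.12, adjusted p = 0.00175). Brinp3, a neural cell cycle inhibitor, read 9.01 and 8.99 against 10.06 and 10.40 (change −1.23 ± 0.15, adjusted p = 0.00544), and Klhl4, a Kelch-family protein, read 6.74 and 6.55 against 7.61 and 7.84 (change −1.08 ± 0.13, adjusted p = 0.00483). These 3 calls held in all 10 fits and the arsenite arrays lay below every vehicle array. Nwd2, an NTPase-domain protein, fell by 1.06 ± 0.22 (adjusted p = 0.0441), with a second probe set at −0.11, and held in 2 fits. Of clock genes, a list added after the values were seen, 4 of 19 fell: Per1 and Nfil3, given above, the retinoid-related receptor Rorb (change −1.03, adjusted p = 0.00703) and Npas2, a partner of BMAL1 (change −0.91, adjusted p = 0.0221). Clock, Arntl, which encodes BMAL1, and Nr1d1 differed by 0.22, −0.08 and −0.23.

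Several stress and damage programmes gave no call, or next to none, in ATF4-deficient neurons. Of 30 proteasome subunits 0 passed, though 24 lay above 0, with a median of 0.15 (0.05 to 0.20 with 1 ATF4-deficient array left out) and Psmc2, an ATPase of the regulatory particle, highest at 0.47 (adjusted p = 0.248). Of 19 genes of cholesterol and fatty acid synthesis 17 lay below 0 and 0 passed. The median of the list was −0.25 (−0.33 to −0.13 with 1 ATF4-deficient array left out), beside −0.26 in wildtype neurons, with Mvd, mevalonate diphosphate decarboxylase, lowest at −0.64 (adjusted p = 0.281). Lamp2, the lysosomal membrane protein, was the only call among 29 genes of autophagy and lysosome (rise 0.53 ± 0.11, adjusted p = 0.0441), and it held in 0 of the 10 fits. The Bcl-2 family, with 14 genes, p53 targets, with 15, inflammatory genes, with 15, hypoxia genes, with 11, and nuclear genes of the respiratory chain, with 26, had 0 calls each by limma and medians between −0.06 and 0.10. Hrk, a neuronal BH3-only gene, differed by 0.56 (adjusted p = 0.287). Genes of arsenic uptake, methylation and export gave 0 calls of 11, with As3mt, the arsenic methyltransferase, at −0.03.

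Set beside wildtype neurons, the same arsenite treatment called 107 genes, 51 that rose and 56 that fell (0.482% of genes). The 2 contrasts share no array. The 13 astrocyte markers averaged 8.90 and 9.16 in wildtype vehicle arrays, against 8.10 and 7.63 in ATF4-deficient vehicle arrays. Their median change was −0.42 in wildtype and −0.06 in ATF4-deficient neurons, with 0 called in either. The ATF4-deficient median ran from −0.25 to 0.36 with 1 ATF4-deficient array left out. What part these markers have in the comparison of genotypes was not tested. Of the 140 genes that rose in ATF4-deficient neurons, 137 were also above 0 in wildtype and 20 were called there. Of the 116 that fell, 104 were below 0 in wildtype and 21 were called. A test of the difference between genotypes, the interaction term of the limma model, called 0 of 22180 genes (0%), with 1330 at an unadjusted p under 0.05 and a smallest adjusted p of 0.340. No gene can therefore be said to respond differently in the 2 genotypes, and this includes genes with wide gaps. Hmox1 rose by 2.18 in ATF4-deficient and 3.25 in wildtype neurons, a difference of −1.07 ± 0.48 (adjusted p = 0.828), and Slc7a11 by 1.43 and 2.25 (−0.82 ± 0.38, adjusted p = 0.836).

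Over the 26 activity-regulated factors the median change was −0.31 in ATF4-deficient and −0.15 in wildtype neurons, where 1 was called as falling. Over the 3 Nr4a genes the medians were −1.38 and −0.61. The 4 Egr genes went the other way, with medians of −0.28 in ATF4-deficient and −0.48 in wildtype neurons. The 1 wildtype call of the list was among them. The same comparison of genotypes is given for 3 activity-regulated genes, which were singled out for their fall in ATF4-deficient neurons. Fos changed by −1.62 and −0.18, a difference of −1.44 ± 0.28 (adjusted p = 0.439), Npas4 by −1.77 and −0.45 (−1.32 ± 0.24, 0.340), and Pcsk1 by −1.16 and 0.06 (−1.22 ± 0.24, 0.439). In Fos and Npas4 the genotypes overlapped under arsenite, while under vehicle both ATF4-deficient arrays lay above both wildtype arrays. Fos read 7.13 and 6.35 in ATF4-deficient arsenite, 8.50 and 8.22 in ATF4-deficient vehicle, between 6.66 and 7.00 in wildtype arsenite and 7.02 and 7.03 in wildtype vehicle arrays. Npas4 read 7.04 and 6.58, then 8.72 and 8.45, between 6.74 and 7.13 and 7.50 and 7.23 in the same 4 groups. Rxfp1 read 6.76 and 6.65 in ATF4-deficient arsenite, 7.92 and 8.18 in ATF4-deficient vehicle, between 5.85 and 6.20 in wildtype arsenite and 6.47 and 6.23 in wildtype vehicle arrays, so its ATF4-deficient arrays lay above the wildtype arrays under both treatments. The genotypes under vehicle were not tested here, and such a comparison would share its ATF4-deficient vehicle arrays with the arsenite response. Rgs4 and Snx7 were among the genes called in both genotypes. The change of Rgs4 was −2.02 in ATF4-deficient and −1.40 in wildtype neurons, and that of Snx7 −1.30 in ATF4-deficient and −1.17 in wildtype neurons. Of the 20 rises called in both genotypes, the wildtype rise was 0.97 for Slc44a5, 0.86 for Tas2r108 and 0.57 for Tas2r137. It was 0.70 for Adamts18, 0.89 for Mir669j and 0.90 for Mir669k.

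**Figure D5:**
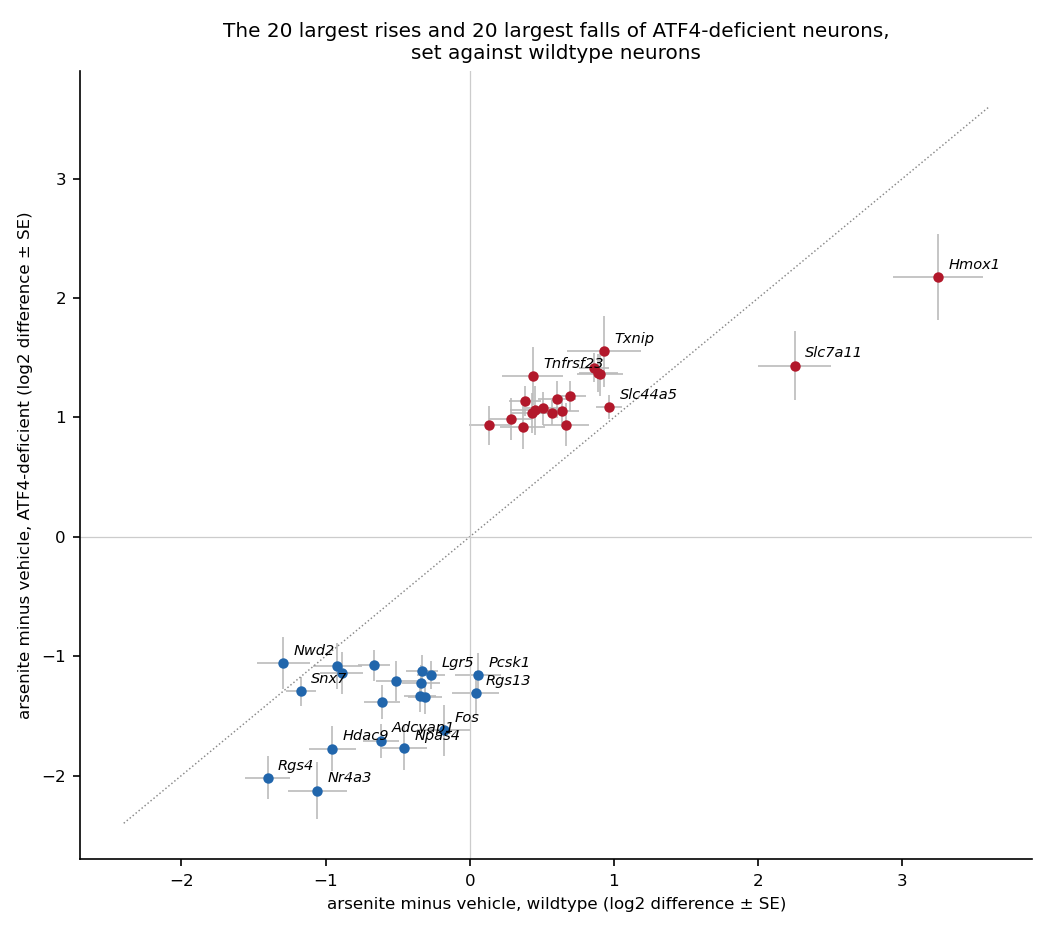
Log2 change with arsenite in ATF4-deficient neurons (vertical axis) against the change in wildtype neurons (horizontal axis) for the 20 largest named rises (red) and 20 largest named falls (blue) of ATF4-deficient neurons, with standard errors of the limma fit; the dotted line marks equal change. The genes were picked for their ATF4-deficient change, so most lie farther from 0 on that axis, with Hmox1 and Slc7a11 on the other side of the line, and 0 genes passed the test of the difference.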

How the data were processed

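Expression was measured on 10 Affymetrix arrays of cultured mouse cortical neurons. The deposited values are log2 expression, made by the authors with RMA and Partek 6.6, per the submitters' processing notes, which give no order or options of the steps. No counts or raw intensities were used, and the small number of arrays limits the precision. Of 41345 probe sets, 23521 have 1 gene symbol, 1814 have several and 16010 have none in the platform annotation used here. The brightest probe set stood for each of 22180 genes, and 1082 genes have several. Of the probe sets with 1 symbol, 23328 matched RefSeq GRCm38.p6 by Entrez identifier, which changed 0 names, and promoter and microRNA sequences come from its tables. Groups were taken from the labels. A limma model (limma 3.58.1, R 4.3.3) with 1 coefficient per genotype and treatment was fitted to all 10 arrays, so that the 4 groups share an estimate of the spread with 6 residual degrees of freedom. Empirical Bayes moderation and Benjamini-Hochberg adjustment over all genes followed, and a gene was called at an adjusted p under 0.05. Group means rest on 2 arrays each in ATF4-deficient neurons. The script was tested on simulated data with independent noise, where it called 82% of true log2 changes of 1 and 22% of those of 0.5. A gene that was not called may therefore still have changed. Genes were named by size of change (20 rises and 20 falls that do not overlap between groups, leaving out clone-type and predicted names), as members of gene lists, and as called members of these lists. The members and lists were chosen with earlier results of these data known, and the clock, cadherin, protocadherin, zinc finger and hairpin lists and the neighbours of Tas2r108 were added after their values were seen. Alternatives were a fit on the 4 ATF4-deficient arrays, array weights, replicate blocks, averaged probe sets, equal array medians, a mean-variance trend, leaving out dim genes and leaving out each array.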

Additional observations from a re-analysis of the deposited data

Results flagged for a closer look

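In 8 of 107 genes screened, 1 of the 4 wildtype arsenite arrays, not the same one for all genes, stood apart from the other 3 by Dixon's test at the 95% level, which chance passes in about 1 of 20 groups, so a number of this order would arise by chance. Array 1 read high for Mir669i, at 6.88 where the others lay between 6.59 and 6.63, for Arrdc4, at 9.90 against 9.65 to 9.68, and for Zfp994, at 8.07 against 7.97 to 7.99. Array 2 read high for Zfp462, at 10.42 against 10.19 to 10.21. Array 3 read low for Nr4a1, at 7.36 against 7.61 to 7.62, and for Klf6, at 8.85 against 9.18 to 9.24. Array 4 read high for Adcy8, at 7.93 against 7.76 to 7.77, and for Usp2, a deubiquitinase, at 7.89 against 7.66 to 7.70. The ATF4-deficient groups have 2 arrays each and cannot be examined in this way. Outside the genes measured, 17824 probe sets have no single gene symbol, and 7 of them (0.0393%) passed the same limma model, 7 higher and 0 lower with arsenite in ATF4-deficient neurons.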

How the results depend on the processing

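No gene named as called changed its direction under the alternatives run, and the difference between genotypes called 0 genes in each fit that includes wildtype arrays, with 1330 genes at an unadjusted p under 0.05 with all 10 arrays. In the fits that leave out an array the direction could not change, since the arrays of called genes do not overlap between treatments. Medians of gene lists are not fixed in this way and were less stable. Leaving out 1 ATF4-deficient array moved 11 to 17 of 57 list medians by more than the spread between replicates, and 26 of the 57, all within 0.14 of 0 with all arrays, changed sign in at least 1 such fit. In the other settings 8 changed sign. Of the 256 calls, the number moved to 0 (0 that rose, 0 that fell) with only the 4 ATF4-deficient arrays. That fit has 2 residual degrees of freedom. All 256 had an unadjusted p under 0.05 there, but they had been called on these same 4 arrays, so this is no independent support. Their changes are equal in both fits, so no sign could change. The number of calls moved to 135 (69 rose, 66 fell) with array weights. Those weights were lowest for the 2 ATF4-deficient arsenite arrays, at 0.72 each, against 0.93 to 1.19 for the other arrays. The main fit gives every array the same weight. The number that rose moved to 219 when dim genes were left out, with 154 falling and 373 in all. Leaving out 1 array gave 50 to 200 calls, 21 to 101 that rose and 22 to 109 that fell. Averaged probe sets gave 236 calls, equal array medians 214, and a prior that follows mean expression 269. The replicate numbers are shared by the groups, but the labels do not say that they mark a shared litter or day. Deviations of same-numbered ATF4-deficient arrays correlated at 0.403, or 0.358 over autosomes, as a hint from the data only. Xist, given above, was likewise high on both ATF4-deficient arrays numbered 1 and low on both numbered 2. The main fit has no term for replicate number or sex. A replicate block shared by all groups gave 286 calls (146 rose, 140 fell), and a replicate block in the ATF4-deficient arrays gave 339 (195 rose, 144 fell). Dim probe sets limit what can be said of genes such as Slc7a11, whose ATF4-deficient means lay under the level of receptor genes.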
